A study of Mus musculus with 35 samples.

Results

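The interstitial and matricellular matrix genes are a list of 50 genes, out of 33292 in the table. They encode matrix proteins, and enzymes that crosslink them, other than the main chains of the glomerular basement membrane (GBM). By the roles of their products they fall into 10 adhesive and matricellular glycoproteins, 12 proteins of the basement membrane zone, 6 fibrillar collagens, 7 fibril-associated and network collagens, 4 proteoglycans, 8 proteins of elastic fibres and microfibrils and 3 crosslinking enzymes. All 50 were found in the table, all 50 were above 0 in at least 1 mouse, and 24 of them were expressed highly enough to be tested in at least 1 comparison between groups.

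Podocytes are the epithelial cells that wrap the glomerular capillaries, and with the endothelium they lay down the GBM, a sheet of type IV collagen, laminin, nidogen and heparan sulfate proteoglycan. Interstitial matrix, by contrast, is built from fibrillar collagens that lysyl oxidases crosslink, from small proteoglycans that bind the fibrils and from elastic fibres assembled on microfibrils, and it is mostly the product of fibroblasts. Matricellular proteins such as SPARC, tenascin C and the thrombospondins sit in the matrix and act on cells rather than bearing load, and several of them are known to rise in injured or scarring tissue.

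RNA was sequenced from podocytes that were sorted by FACS for green fluorescence from 35 mice, 1 library per mouse. Every mouse carried 1 floxed Lmx1b allele, an rtTA transgene expressed in podocytes, the tetO::Cre (LC-1) transgene and the mT/mG reporter, so that 7 days of doxycycline (2 mg/ml, drinking water) switched on Cre in podocytes, deleted the floxed allele and turned the cells green. The other Lmx1b allele was wild type (Lmx1b+/lox, labelled WT, the controls), carried H77L in the first LIM domain (Lmx1bH77L/lox) or carried C118F in the second (Lmx1bC118F/lox). Mice aged 7 to 10 weeks received bortezomib, a proteasome inhibitor, intraperitoneally at 0.3 µg per g every other day, or its solvent DMSO. There were 6 mice in each of the 6 groups, except 5 in the bortezomib-treated Lmx1bC118F/lox group. The controls therefore also lost 1 copy of Lmx1b and received doxycycline, and the sort selected for cells in which Cre had acted. Markers of other cell types were still found in some libraries, as given below. Lmx1b transcripts were present in every mouse, with group medians from 71.5 TPM (a read count scaled for gene length and for the size of the library) in DMSO-treated controls to 128 TPM in bortezomib-treated Lmx1bC118F/lox mice, and a gene's level does not tell the missense alleles apart.

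The 12 podocyte markers checked (such as Synpo and Podxl) all had a median above 1 TPM in every group. Their summed level lay between 27000 and 43000 TPM in DMSO-treated controls, but between 5760 and 10300 TPM in DMSO-treated Lmx1bH77L/lox and between 5630 and 12700 TPM in DMSO-treated Lmx1bC118F/lox mice, and 9 of the 12 were lower in each line. In sorted bulk cells, fewer cells of a type and less RNA per cell cannot be told apart. The libraries held between 5259973 and 24115696 reads in genes, estimated from the steps between low TPM values, with a median of 19136356. The shallowest was replicate 2 of the bortezomib-treated Lmx1bC118F/lox group, and the next held 14023227 reads.

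A small part of the list made up most of its transcripts. Sparc, which encodes a collagen-binding matricellular protein, lay between 2090 and 4820 TPM, and Npnt, which encodes nephronectin, the integrin α8β1 ligand, between 719 and 2880 TPM. Together they held 52.7% to 81.2% of the summed level of all 50 members in each mouse, which ranged from 5592.3 to 9895.5 TPM. Both were well above the next members in most mice, which were Col18a1 (207 to 1160 TPM), the source of the heparan sulfate proteoglycan collagen XVIII, and Efemp1 (219 to 701 TPM), which encodes fibulin-3. Further members were above 1 TPM in all 35 mice, to a total of 15: Col1a2, Col18a1, Col4a6, Nid2, Sparc, Spp1, Thbs1, Efemp1, Efemp2, Ecm1, Lox, Loxl1, Loxl2, Emilin1 and Npnt. In Col1a2, the α2 chain of type I collagen, the median was 166 TPM, whereas in Col1a1, the α1 chain of the same collagen, it was 1.56 TPM (both per length). Interstitial matrix genes that fibroblasts express strongly were at or near 0 in the median mouse: Col3a1 0.154 TPM, Fn1 0.0365 TPM, Col6a3 and Col14a1 0 TPM. Of the 50 members, 24 met the expression filter in at least 1 comparison, 21 exceeded 1 TPM in some mice only, and 5 (Col27a1, Lama1, Lama2, Lamb3 and Fbn2) never did.

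**Figure D1:**
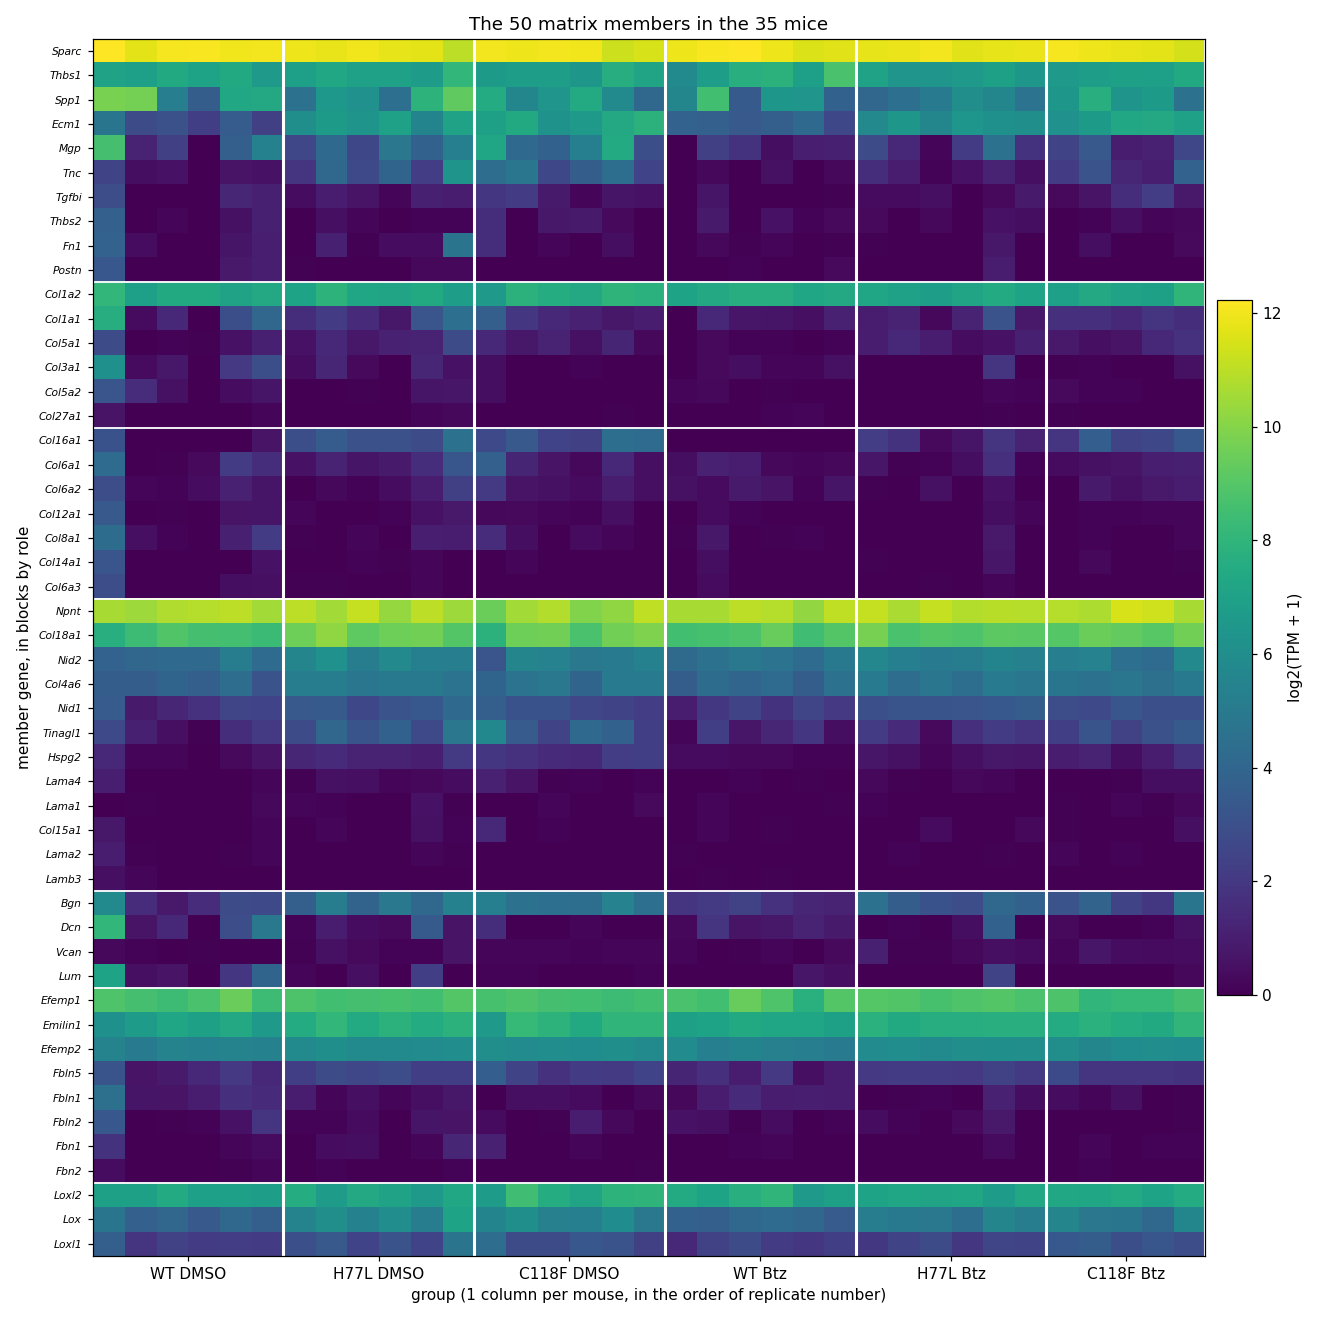
Level of each of the 50 members (rows, in blocks by role) in each of the 35 mice (columns, in blocks by group), as log2(TPM + 1) from 0 in dark blue to the highest level in yellow. Sparc and Npnt are bright in every mouse, the fibrillar and network collagens are dark in most mice, and the first column, DMSO-treated control replicate 1, is lit in members that are dark in the other mice.

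One mouse stood apart from the other 34 in these genes, and it was a control. Replicate 1 of the DMSO-treated controls, with 17848236 reads, had the highest level of all 35 mice in 25 of the 50 members, and the mouse next in that count had 7. Within its own group it was the highest in 40 of the 50 members (80%), against 22.8% of the genes tested. Dcn, which encodes decorin, was at 272 TPM in this mouse and at most 28.8 TPM, in replicate 6 of its group, in all others. Lum, which encodes lumican, was at 136 TPM and elsewhere at no more than 14.3 TPM, in the same replicate 6, and Mgp, the matrix Gla protein, was at 391 TPM against no more than 175 TPM. Col1a1 was at 195 TPM and Col3a1 at 69.1 TPM, and Col6a3, Col12a1 and Col14a1 were above 1 TPM in this mouse alone. Of 9 fibroblast markers, Gas1 ranged from 126 to 3280 TPM over all mice and made up most of the sum, so the other 8 were read singly. This mouse was the highest of the 35 in 5 of those 8, among them Pdgfra at 3.07 TPM (at most 0.545 TPM elsewhere) and Pi16 at 9.12 TPM (at most 2.93 TPM elsewhere). The leukocyte markers also had their highest sum, 454 TPM, in this mouse. The part of these cells in its matrix values was not tested, and values without it are given beside the comparisons that use this group.

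**Figure D2:**
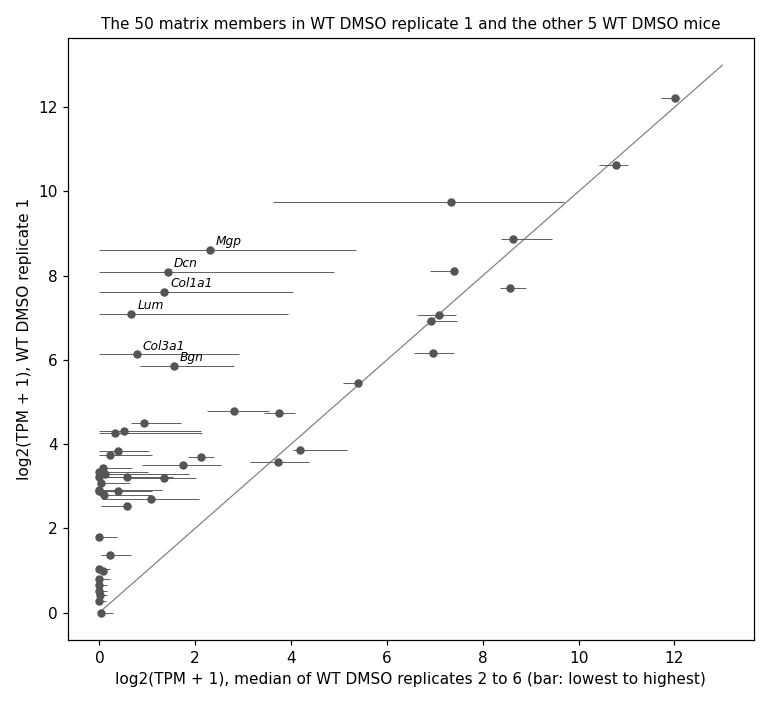
Level of the 50 members in DMSO-treated control replicate 1 (vertical axis) against the median of the other 5 DMSO-treated controls (horizontal axis, bars from lowest to highest), both as log2(TPM + 1), with the line of equality. Dcn, Col1a1, Lum, Col3a1, Mgp and Bgn lie far above the line, while Sparc, Npnt and the other highly expressed members lie close to it.

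A second mouse, replicate 1 of the DMSO-treated Lmx1bC118F/lox group, had a summed level of 11 mesangial and smooth muscle markers of 3260 TPM, and no other mouse exceeded 981 TPM. Ren1, the renin gene, was at 2170 TPM and Acta2 at 422 TPM in this mouse, against at most 34.7 and 72.6 TPM in the other 5 of its group, and the endothelial marker Pecam1 was at 25.3 TPM against at most 3.38 TPM. It was the highest of its group in 18 members (36%, against 16.1% of the genes tested), for example in Tinagl1 at 51.7 TPM.

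The main comparison asked which members differed between knock-in and control podocytes. Tests were made with limma on log2(TPM + 1) over all genes that exceeded 1 TPM in each mouse of either group, and a gene was called at a Benjamini-Hochberg adjusted p under 0.05. A log2 fold change on this scale understates the change of genes near or below 1 TPM. Under DMSO, 14 of the 50 members were higher in Lmx1bH77L/lox podocytes and 0 lower, with 23 tested, where 22.4% of all 10964 genes tested were higher and 22.4% lower. In Lmx1bC118F/lox podocytes, 11 members were higher and 0 lower, again with 23 tested, and the shares of all genes were 13.7% higher and 16.6% lower. The same 10 members were higher in both lines: Bgn, Col16a1, Col4a6, Ecm1, Efemp2, Emilin1, Hspg2, Lox, Tinagl1 and Tnc. Col18a1, Fbln5, Nid1 and Nid2 passed only in Lmx1bH77L/lox and Loxl2 only in Lmx1bC118F/lox mice, but none of these 5 differed between both lines by limma. With mouse number as a covariate, Bgn, Hspg2 and Tnc lost their calls in Lmx1bH77L/lox mice and Bgn, Col4a6 and Emilin1 in Lmx1bC118F/lox mice, at adjusted p values up to 0.184, so that Col16a1, Ecm1, Efemp2, Lox and Tinagl1 were then called in both lines. Mouse numbers were not balanced over the groups, as both lines reached higher numbers under DMSO than any DMSO-treated control. This covariate is therefore partly confounded with genotype. Both lines were compared with the same control mice, so these lists are not independent of each other.

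Some members entered the test only because they exceeded 1 TPM in the knock-in mice. Of the 15 members above 1 TPM in every mouse of both groups, 7 were higher in Lmx1bH77L/lox mice (background 20.9%) and 6 in Lmx1bC118F/lox mice (11.9%). The other 8 (Bgn, Col16a1, Fbln5, Hspg2, Mgp, Nid1, Tinagl1 and Tnc) passed through the knock-in group alone, where 60.1% and 58.9% of all such genes were higher. Every knock-in mouse was above every control in 8 members in Lmx1bH77L/lox (11.0% of genes, with 10.1% below) and in 4 in Lmx1bC118F/lox mice (6.48%, with 7.18% below), and in 0 members every knock-in mouse was below. The shares are over all genes tested. Tinagl1 in Lmx1bH77L/lox and Hspg2 in Lmx1bC118F/lox mice are among these members and passed through the knock-in group alone, which favours such a separation. Over all 50 members, tested or not, the median log2 difference was -0.01 in Lmx1bH77L/lox and -0.09 in Lmx1bC118F/lox mice, beside -0.03 and -0.04 over all genes above 0. Without control replicate 1 these medians were 0.13 and 0.17, beside -0.01 and -0.02. Without it, 15 and 13 members were higher (20.7% and 12.5% of genes): Loxl1 was gained in both lines and Fbln5 and Nid1 in Lmx1bC118F/lox mice, while Loxl2 was lost. Without Lmx1bC118F/lox replicate 1, that line also had 13 higher members, Col18a1 and Nid2 being added.

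A stricter cutoff, an adjusted p under 0.001 with an absolute log2 fold change over 2, was met by Col16a1 and Ecm1 in Lmx1bH77L/lox (1.62% of genes) and by Ecm1 and Tnc in Lmx1bC118F/lox podocytes (1.63%). Without control replicate 1 it was met by 5 members in Lmx1bH77L/lox (Bgn, Col16a1, Ecm1, Lox and Tinagl1) and by 4 in Lmx1bC118F/lox mice (Bgn, Col16a1, Ecm1 and Tnc), with 1.85% of genes in each. In Lmx1bH77L/lox mice, Ecm1 alone met it without any other single control or without Lmx1bH77L/lox replicate 2, 4 or 6, and in Lmx1bC118F/lox mice without control replicate 3, 4 or 6.

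**Figure D3:**
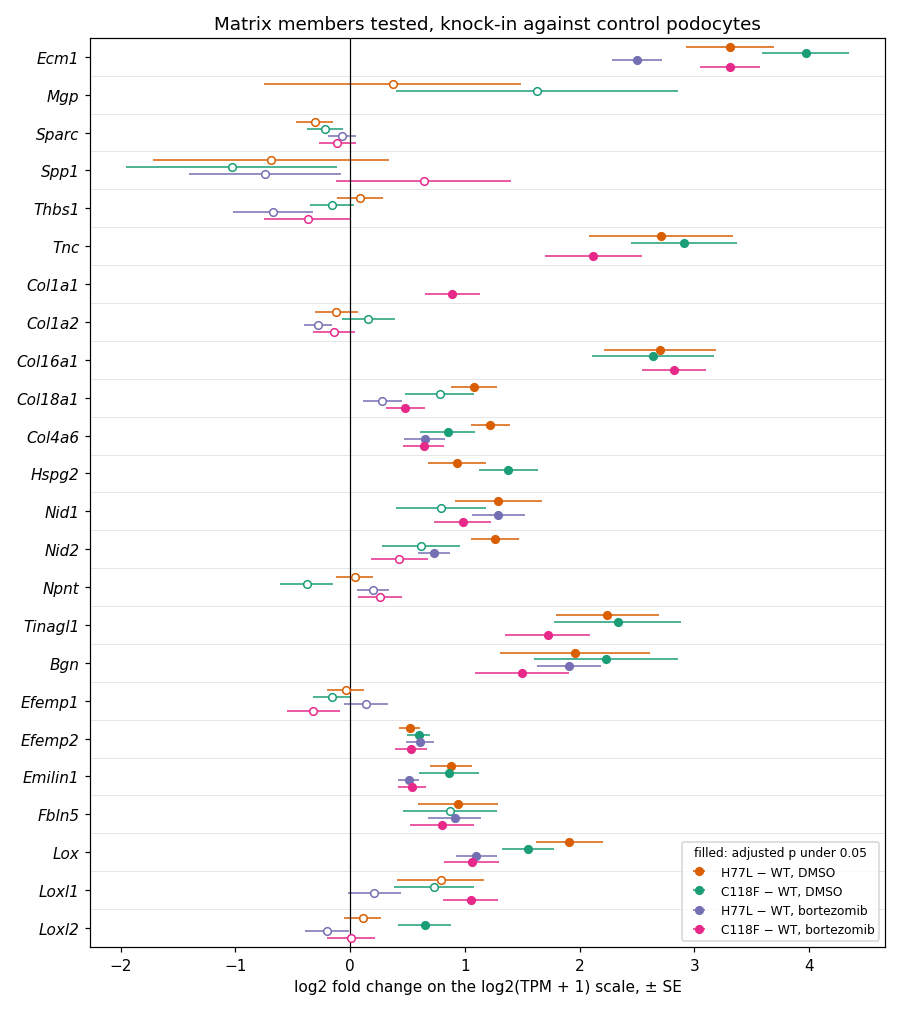
Log2 fold change with its SE (horizontal axis, log2(TPM + 1) scale) of each tested member (vertical axis) in knock-in against control podocytes, for both lines under DMSO and under bortezomib, filled where the adjusted p was under 0.05. All filled points lie to the right of 0, from 0.48 for Col18a1 to 3.97 for Ecm1, while Sparc, Npnt, Spp1, Thbs1, Efemp1 and Col1a2 have open points only, those of Spp1 from -1.03 to 0.64 with the widest bars of these 6.

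Among the adhesive and matricellular glycoproteins, 2 of the 6 tested under DMSO rose, Ecm1 and Tnc. Ecm1, which encodes extracellular matrix protein 1, a secreted glycoprotein that binds perlecan and other matrix proteins, lay between 3.77 and 26.4 TPM in DMSO-treated controls (median 6.6). It lay between 44.7 and 130 TPM in Lmx1bH77L/lox (median 89.2) and between 76.7 and 229 TPM in Lmx1bC118F/lox mice (median 146). Every knock-in mouse was above every control, the highest control being replicate 1. Ecm1 rose by 3.31 ± 0.38 on the log2 scale (SE, adjusted p = 1.1e-05, limma) in Lmx1bH77L/lox and by 3.97 ± 0.38 (adjusted p = 2.8e-06) in Lmx1bC118F/lox mice, the order in which pairs of values are given from here on, and by 3.64 and 4.30 without control replicate 1.

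Tnc encodes tenascin C, a large glycoprotein of developing and wounded tissue that the normal adult glomerulus holds mainly in the mesangium. It lay between 0.024 and 4.77 TPM in the controls (median 0.5), between 2.67 and 79 TPM in Lmx1bH77L/lox (median 9.83) and between 4.54 and 27.2 TPM in Lmx1bC118F/lox mice (median 15.2). The groups overlapped through control replicate 1 alone, as the other 5 controls were at 0.584 TPM or below. Tnc rose by 2.71 ± 0.63 (adjusted p = 0.00339, limma) and 2.91 ± 0.46 (adjusted p = 2.8e-04), and by 3.06 and 3.25 without that mouse.

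The abundant members of this class did not pass the test. Sparc had log2 fold changes of -0.31 ± 0.16 and -0.22 ± 0.16, and Thbs1, which encodes the TGFβ activator thrombospondin 1, of 0.09 ± 0.20 and -0.16 ± 0.19. Spp1, which encodes osteopontin, varied widely within groups, from 11.3 to 864 TPM among the DMSO-treated controls and from 21.2 to 616 TPM among the Lmx1bH77L/lox mice, with log2 fold changes of -0.69 ± 1.03 and -1.03 ± 0.92. Mgp ranged from 0 to 391 TPM in the controls, and its log2 fold changes of 0.37 ± 1.12 and 1.63 ± 1.23 carried the largest errors among the tested members. Without control replicate 1 they were 1.39 ± 0.80 and 2.64 ± 0.97 (adjusted p = 0.179 and 0.0591), and those of Spp1 were -0.17 ± 1.01 and -0.52 ± 0.89. Fn1, Postn, Tgfbi and Thbs2 were not tested. Fn1, which encodes fibronectin, was highest in Lmx1bH77L/lox replicate 6 at 25 TPM and in control replicate 1 at 13.3 TPM, and at most 2 TPM in the other mice under either treatment.

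In the basement membrane zone, 6 of the 7 tested members rose in Lmx1bH77L/lox and 3 in Lmx1bC118F/lox mice. Col4a6, the α6 chain that pairs with α5 in the collagen IV network of Bowman's capsule, lay between 7.85 and 19.6 TPM in controls, between 24.6 and 35.3 TPM in Lmx1bH77L/lox and between 14.2 and 32.2 TPM in Lmx1bC118F/lox mice. All Lmx1bH77L/lox mice were above all controls, and the Lmx1bC118F/lox mice overlapped with them. The log2 fold changes were 1.22 ± 0.17 (adjusted p = 6.3e-05, limma) and 0.85 ± 0.24 (adjusted p = 0.0169).

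Hspg2, which encodes perlecan, the heparan sulfate proteoglycan of most basement membranes, was low in all groups. Its levels were 0.0253 to 1.56 TPM in controls (median 0.196), 1.04 to 3.2 TPM in Lmx1bH77L/lox (median 1.43) and 1.59 to 3.86 TPM in Lmx1bC118F/lox mice (median 2.58). Lmx1bC118F/lox mice were all above the controls, and the log2 fold changes were 0.93 ± 0.25 (adjusted p = 0.00854, limma) and 1.38 ± 0.26 (adjusted p = 0.00112). Tinagl1, a tubulointerstitial nephritis antigen-like matrix protein, lay between 0.0428 and 5.51 TPM in controls (median 1.58), between 5.52 and 28 TPM in Lmx1bH77L/lox (median 10.5) and between 3.82 and 51.7 TPM in Lmx1bC118F/lox mice (median 11.6). The lowest Lmx1bH77L/lox mouse was level with the highest control. The log2 fold changes were 2.24 ± 0.45 (adjusted p = 0.0011, limma) and 2.33 ± 0.55 (adjusted p = 0.00578), and 2.52 and 2.60 without control replicate 1.

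The nidogens, which bridge laminin and type IV collagen, and Col18a1 rose in Lmx1bH77L/lox mice: Col18a1 by 1.08 ± 0.20 (adjusted p = 7.4e-04), Nid1 by 1.29 ± 0.38 (adjusted p = 0.0131) and Nid2 by 1.26 ± 0.21 (adjusted p = 3.0e-04), by limma. In Lmx1bC118F/lox mice their log2 fold changes were 0.78 ± 0.30, 0.79 ± 0.39 and 0.62 ± 0.34 and did not pass, although Nid1 passed without control replicate 1 (1.08 ± 0.34, adjusted p = 0.0307). Replicate 1 of the DMSO-treated Lmx1bC118F/lox group, the mouse high in mesangial markers, had the lowest Col18a1 (229 TPM) and Nid2 (8.23 TPM) of its group, and without it both genes passed. Whether reads were counted by strand is not given in the sources used here, so reads of Col18a1 and of Slc19a1 on the opposite strand (median 6.17 TPM), and of Nid2 and Rtraf (157 TPM), cannot be told apart where the genes overlap. Npnt, at 1380 to 2090 TPM in controls, had log2 fold changes of 0.04 ± 0.16 and -0.38 ± 0.23. Col15a1, Lama1, Lama2, Lama4 and Lamb3 never exceeded 1.7 TPM.

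Of the 6 fibrillar collagens, Col1a2 was tested under DMSO and did not pass. It lay at a median of 169 TPM and up to 274 TPM in controls, between 111 and 236 TPM in Lmx1bH77L/lox and between 98.8 and 244 TPM in Lmx1bC118F/lox mice, with log2 fold changes of -0.12 ± 0.19 and 0.16 ± 0.23. Col1a1 reached the filter in bortezomib-treated Lmx1bC118F/lox mice alone, whereas Col3a1, Col5a1, Col5a2 and Col27a1 were below the expression filter in every comparison. Col5a1, a nucleator of fibrils, had medians of 0.282 TPM in controls, 1.24 TPM in Lmx1bH77L/lox and 1.04 TPM in Lmx1bC118F/lox mice.

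Of the fibril-associated and network collagens, Col16a1 alone reached the filter, and it rose in both lines. Collagen XVI is a fibril-associated collagen that interacts with integrins α1β1 and α2β1. Col16a1 lay between 0 and 7.43 TPM in controls, between 6.04 and 23.4 TPM in Lmx1bH77L/lox (median 7.19) and between 4.01 and 20.3 TPM in Lmx1bC118F/lox mice (median 7.66). The 7.43 TPM were those of control replicate 1, and the other 5 controls did not exceed 0.556 TPM. The log2 fold changes were 2.70 ± 0.49 (adjusted p = 5.1e-04, limma) and 2.64 ± 0.53 (adjusted p = 0.0019), and 3.19 and 3.13 without that mouse. Col6a1, Col6a2, Col6a3, Col8a1, Col12a1 and Col14a1 had medians of at most 1.14 TPM in every group.

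Of the 4 proteoglycans, Bgn was tested. It encodes biglycan, a small leucine-rich proteoglycan that binds collagen and, when released, Toll-like receptors. Its levels were 0.788 to 56.9 TPM in controls (median 3.76), 12 to 41.1 TPM in Lmx1bH77L/lox (median 22.7) and 20.7 to 42.5 TPM in Lmx1bC118F/lox mice (median 22.1). Control replicate 1, at 56.9 TPM, was above every knock-in mouse. The log2 fold changes were 1.96 ± 0.65 (adjusted p = 0.0243, limma) and 2.23 ± 0.63 (adjusted p = 0.0156), and 2.63 and 2.89 without that mouse. The call in Lmx1bH77L/lox mice was lost without control replicate 2, 3 or 4, at adjusted p values up to 0.0573. Dcn, Lum and Vcan (versican) were not tested, and outside control replicate 1 they did not exceed 28.8 TPM.

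Of the elastic fibre and microfibril proteins, Efemp2 and Emilin1 rose in both lines. Efemp2 encodes fibulin-4, which brings lysyl oxidase to elastin, and it differed little between mice of a group. Its levels were 33 to 43.1 TPM in controls, 54.1 to 67.6 TPM in Lmx1bH77L/lox and 57.6 to 67 TPM in Lmx1bC118F/lox mice. The controls did not overlap with either line, and the log2 fold changes were 0.52 ± 0.09 (adjusted p = 3.6e-04, limma) and 0.60 ± 0.10 (adjusted p = 3.0e-04). Mus81 overlaps Efemp2 on the opposite strand (median 16.9 TPM), and by the same limit its reads there cannot be told apart.

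Emilin1, an elastin microfibril interface glycoprotein, lay between 70.5 and 168 TPM in controls, between 177 and 278 TPM in Lmx1bH77L/lox and between 98.6 and 297 TPM in Lmx1bC118F/lox mice. All Lmx1bH77L/lox mice were above the controls. Emilin1 rose by 0.88 ± 0.18 (adjusted p = 0.00155, limma) and 0.86 ± 0.26 (adjusted p = 0.0213), the second with an adjusted p of 0.052 without Lmx1bC118F/lox replicate 2. Fbln5, which encodes fibulin-5, rose in Lmx1bH77L/lox mice by 0.94 ± 0.35 (adjusted p = 0.0396), a call lost without control replicate 2, 3, 4 or 6 or Lmx1bH77L/lox replicate 2, 3 or 4. Without control replicate 1 it rose in both lines, by 1.27 ± 0.24 (adjusted p = 0.00106) and 1.19 ± 0.33 (adjusted p = 0.0171). Efemp1, at 333 to 701 TPM in controls, had log2 fold changes of -0.04 ± 0.16 and -0.16 ± 0.16. Fbln1, Fbln2, Fbn1 and Fbn2 were below the filter.

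Of the 3 crosslinking enzymes, Lox rose in both lines. It encodes lysyl oxidase, which oxidises lysines of collagen and elastin so that they crosslink. Its levels were 9.79 to 25.6 TPM in controls (median 13.9), 35.9 to 136 TPM in Lmx1bH77L/lox (median 52.9) and 29.1 to 67.2 TPM in Lmx1bC118F/lox mice (median 41.7). No knock-in mouse overlapped with the controls, and Lox rose by 1.91 ± 0.29 (adjusted p = 1.1e-04, limma) and 1.55 ± 0.23 (adjusted p = 1.6e-04), and by 2.06 and 1.71 without control replicate 1. Loxl1 had log2 fold changes of 0.79 ± 0.38 and 0.73 ± 0.35 and did not pass, but did without that mouse (1.05 ± 0.33 and 0.99 ± 0.30, adjusted p = 0.0225 and 0.0247). Loxl2, which also acts on collagen IV, rose in Lmx1bC118F/lox mice by 0.65 ± 0.23 (adjusted p = 0.0456), a call that held without control replicate 3 or Lmx1bC118F/lox replicate 1 or 4 but was lost without any other single mouse, at adjusted p values up to 0.0959. Its opposite-strand neighbour R3hcc1 had a median of 37.4 TPM.

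**Figure D4:**
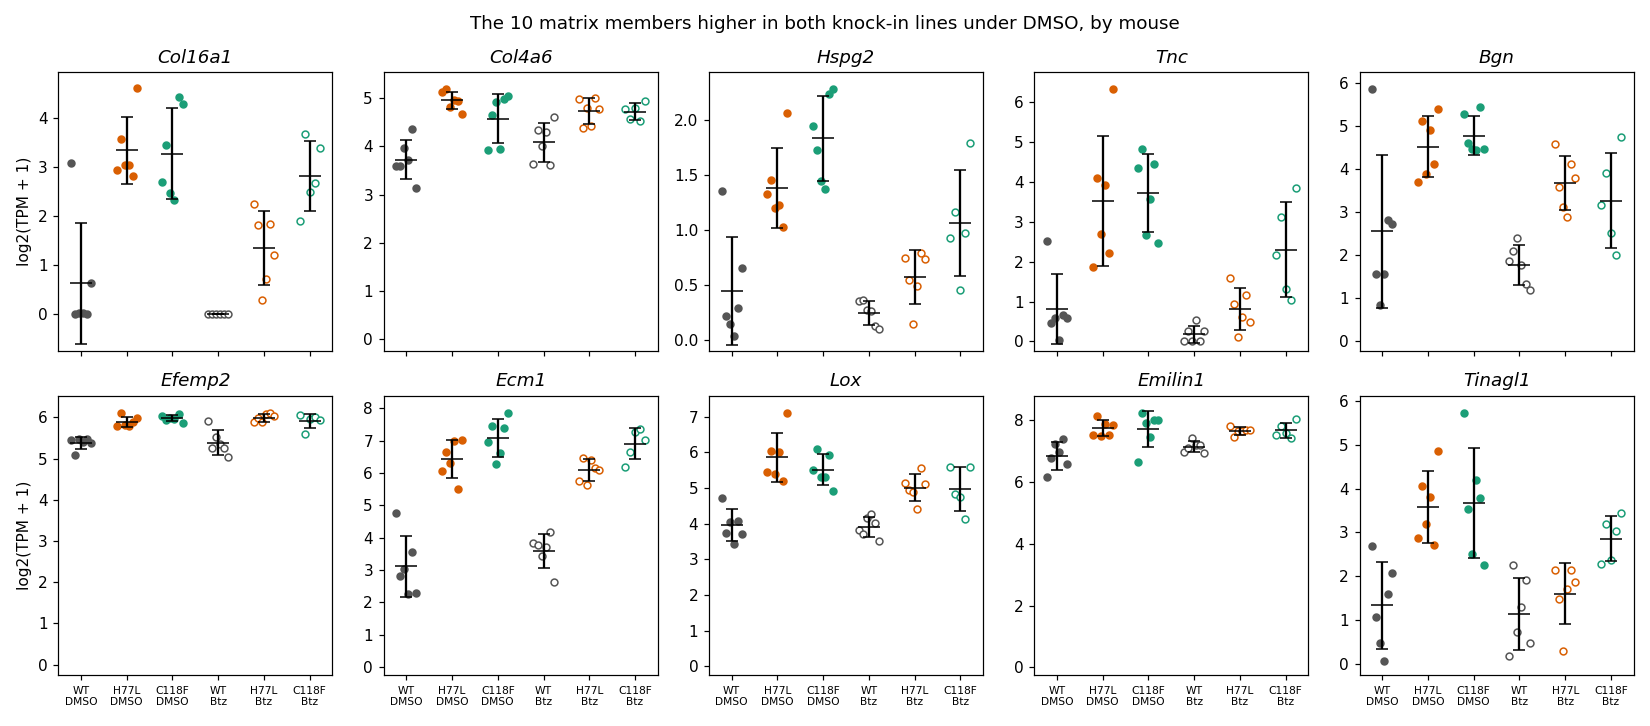
Level of the 10 members higher in both knock-in lines under DMSO, as log2(TPM + 1), in each mouse of the 6 groups (1 point per mouse, filled for DMSO and open for bortezomib, with the group mean and SD in black; each panel has its own vertical axis). Ecm1, Lox and Efemp2 under DMSO separate the knock-in mice from the controls without overlap, and 1 high control mouse is seen in Bgn, Col16a1 and Tnc.

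Lmx1b encodes a LIM homeodomain protein, and the core that many homeodomains bind is TAAT, so the 250 bases before the start of each member were searched for it on both strands. It was found in 22 of 50 members (44%) and in 55.2% of the 21636 promoters of protein-coding genes, which is a description of letters and not of binding. Among the 10 members that were higher in both lines it was found in 5, namely Col16a1, Col4a6, Ecm1, Lox and Tnc. The AP-1 motif TGANTCA, read with C or G at N, was in 1 member (Thbs1, 4.03% of all promoters) and the TEAD motif GGAATG in 7 (14%, against 12.1%), neither in any of the 10. The promoters of the 3 members that met the stricter cutoff under DMSO are shown because they had the largest differences, 5′ to 3′ on the strand of the gene, from GRCm39, with TAAT or its reverse complement ATTA in capitals. They lie at chr3:95646944-95647193 (minus strand) for Ecm1, chr4:129940904-129941153 (plus strand) for Col16a1 and chr4:63965444-63965693 (minus strand) for Tnc.
Ecm1: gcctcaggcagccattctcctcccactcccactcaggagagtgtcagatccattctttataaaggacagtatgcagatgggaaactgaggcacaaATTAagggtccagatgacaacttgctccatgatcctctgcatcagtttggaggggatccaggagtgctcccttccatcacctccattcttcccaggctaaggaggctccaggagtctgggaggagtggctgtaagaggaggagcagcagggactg
Col16a1: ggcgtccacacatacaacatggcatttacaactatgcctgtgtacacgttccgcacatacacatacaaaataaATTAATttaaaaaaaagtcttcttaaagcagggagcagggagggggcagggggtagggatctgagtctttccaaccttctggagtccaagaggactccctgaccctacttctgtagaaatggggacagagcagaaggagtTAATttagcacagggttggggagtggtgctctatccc
Tnc: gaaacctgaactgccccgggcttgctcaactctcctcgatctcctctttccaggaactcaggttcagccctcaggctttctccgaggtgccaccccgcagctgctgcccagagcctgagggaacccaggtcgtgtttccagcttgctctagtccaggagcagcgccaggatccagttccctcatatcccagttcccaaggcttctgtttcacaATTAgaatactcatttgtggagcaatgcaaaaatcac
The match begins 155 bases before the start in Ecm1 and 37 bases before it in Tnc, whereas Col16a1 has 3 matches, of which those at 177 and 175 overlap each other and the third is at 37.

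Under bortezomib, 9 members were higher in Lmx1bH77L/lox than in bortezomib-treated control podocytes (18 tested, background 12.5%) and 14 in Lmx1bC118F/lox podocytes (22 tested, background 15.1%), with 0 lower in either, where 11.0% and 12.4% of all genes were lower. Among the 16 members above 1 TPM in every mouse of both groups, 7 were higher in Lmx1bH77L/lox (11.4% of such genes) and 8 in Lmx1bC118F/lox mice (13.5%). The others passed the filter through the knock-in group alone, namely Fbln5 and Nid1 in Lmx1bH77L/lox mice and these 2 with Col1a1, Col16a1, Tinagl1 and Tnc in Lmx1bC118F/lox mice. All of these were higher, as were 50.1% and 56.5% of all genes that passed in this way. Bgn, Col4a6, Ecm1, Efemp2, Emilin1 and Lox were higher in both lines under both treatments, whereas 33 members were called in none of the 4 comparisons. Every knock-in mouse was above every control in 6 members in Lmx1bH77L/lox (6.80% of genes, with 5.30% below) and in 7 in Lmx1bC118F/lox mice (9.01%, with 6.74% below). These include Nid1 in Lmx1bH77L/lox mice and Col16a1, Nid1, Tinagl1 and Tnc in Lmx1bC118F/lox mice. These genes passed through the knock-in group alone, which favours such a separation, and the shares are over all genes tested. Over all 50 members the median log2 difference was 0.08 and 0.09, beside -0.00 and 0.01 over all genes above 0.

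Ecm1 had the largest fold changes here too. It lay between 5.24 and 17 TPM in bortezomib-treated controls, between 48.6 and 87.5 TPM in Lmx1bH77L/lox mice and at 72.5, 99.6, 153, 164 and 128 TPM in the 5 Lmx1bC118F/lox mice. No knock-in mouse overlapped with the controls, and the log2 fold changes were 2.50 ± 0.22 (adjusted p = 4.4e-07, limma) and 3.31 ± 0.26 (adjusted p = 4.3e-07). Ecm1 met the stricter cutoff in both lines (0.925% and 1.52% of genes), and Col16a1 met it in Lmx1bC118F/lox mice.

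Col16a1 was at 0 TPM in all 6 bortezomib-treated controls. The 3 reads that a count of 0 allows correspond to 0.0696 to 0.0959 TPM in these libraries, a limit for counting error only. The 5 Lmx1bC118F/lox mice had 2.72, 11.8, 4.62, 5.33 and 9.41 TPM, a mean of 6.78 ± 3.73 (SD, n = 5), which is at least 81.4-fold higher than the mean of that limit per library. The 6 Lmx1bH77L/lox mice had a mean of 1.83 ± 1.33 TPM (SD, n = 6), at least 22-fold higher, but not all were above 1 TPM and the gene was not tested there.

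Tnc and Tinagl1 were tested in Lmx1bC118F/lox mice alone under bortezomib, having passed through these mice, and rose by 2.12 ± 0.42 (adjusted p = 0.00166, limma) and 1.72 ± 0.37 (adjusted p = 0.00295). Fbln5 and Nid1 rose in both lines, Nid1 by 1.29 ± 0.23 (adjusted p = 6.1e-04) and 0.98 ± 0.25 (adjusted p = 0.0099) and Fbln5 by 0.91 ± 0.23 (adjusted p = 0.00765) and 0.80 ± 0.28 (adjusted p = 0.0421). The second Fbln5 call was lost in 9 of the 11 fits without 1 mouse, at adjusted p values up to 0.103, and held without bortezomib-treated control replicate 2 or 4. Col1a1, Col18a1 and Loxl1 passed in Lmx1bC118F/lox mice alone and Nid2 in Lmx1bH77L/lox mice alone. Col1a1 was at 1.56 to 2.67 TPM in these mice and 0 to 1.67 TPM in the controls, and rose by 0.89 ± 0.24 (adjusted p = 0.0136). Loxl1 rose without overlap from between 1.61 and 6.08 TPM to between 6.47 and 11.2 TPM, by 1.05 ± 0.24 (adjusted p = 0.00446), whereas Col18a1, with 0.48 ± 0.17 (adjusted p = 0.0463), lost its call without most single mice, at adjusted p values up to 0.115.

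Bgn, at 1.26 to 4.26 TPM in bortezomib-treated controls, rose by 1.91 ± 0.28 (adjusted p = 9.8e-05, limma) in Lmx1bH77L/lox mice, which were all above the controls, and by 1.50 ± 0.41 (adjusted p = 0.0142) in Lmx1bC118F/lox mice. Lox lay between 10.4 and 18.3 TPM in controls, between 20.1 and 46.6 TPM in Lmx1bH77L/lox mice and at 46.7, 27.6, 25.7, 16.5 and 47.4 TPM in Lmx1bC118F/lox mice. Replicate 4 of the last group alone overlapped with the controls, and the log2 fold changes were 1.10 ± 0.18 (adjusted p = 2.4e-04, limma) and 1.06 ± 0.24 (adjusted p = 0.0049). Emilin1, at 122 to 171 TPM in controls, lay between 173 and 225 TPM in Lmx1bH77L/lox and at 171 TPM or above in Lmx1bC118F/lox mice, with log2 fold changes of 0.51 ± 0.09 (adjusted p = 6.0e-04) and 0.54 ± 0.12 (adjusted p = 0.00492). Efemp2 had 0.61 ± 0.12 (adjusted p = 0.00153) and 0.53 ± 0.14 (adjusted p = 0.0143), and Col4a6 0.65 ± 0.18 (adjusted p = 0.0153) and 0.64 ± 0.18 (adjusted p = 0.019), both with some overlap with the controls.

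The next comparison set bortezomib against DMSO within each genotype. In controls 0 of 16 tested members were called, in Lmx1bC118F/lox 0 of 24 and in Lmx1bH77L/lox 3 of 23, all lower, where 0.740% of all genes were lower and 0.416% higher. Without DMSO-treated control replicate 1, 0 of 16 were called in controls as well. The 3 members (Col16a1, Tinagl1 and Tnc) passed the filter through the DMSO group alone, as did Hspg2 and Mgp, and 4.93% of the 345 genes that passed in this way were lower. Of the 18 members above 1 TPM in every mouse of both groups 0 were lower, against 0.615% of such genes. In controls, Lmx1bC118F/lox and Lmx1bH77L/lox mice, 0, 5 and 12 members had an unadjusted p under 0.05, beside 8.66%, 5.86% and 20% of genes tested. Limma voom on reads recovered from the TPM values called 0 in each genotype. In Lmx1bH77L/lox mice, 18 of the 23 tested members had a lower mean under bortezomib, where the median log2 fold change of all genes tested was 0.00. These 23 include the 5 that passed through the DMSO group alone. In 4 of those 5, every bortezomib-treated mouse was below every DMSO-treated mouse (Col16a1, Hspg2, Tinagl1 and Tnc, against 1.16% of genes). That share is over all 10813 genes tested. These 5 members were admitted by their values under DMSO alone, which favours such a separation, so the share is not a matched background.

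Col16a1 fell from between 6.04 and 23.4 TPM to between 0.231 and 3.73 TPM (median 1.92), with a log2 fold change of -1.98 ± 0.35 (adjusted p = 0.0308, limma). Tinagl1 fell from between 5.52 and 28 TPM to between 0.223 and 3.43 TPM (median 2.47), with -1.97 ± 0.37 (adjusted p = 0.0352). Tnc fell from between 2.67 and 79 TPM to between 0.0752 and 2 TPM (median 0.719), with -2.71 ± 0.59 (adjusted p = 0.0432). In each of these genes the groups did not overlap, and Lmx1bH77L/lox replicate 6 under DMSO was the highest of the group. Hspg2 did not overlap either, at 0.106 to 0.73 TPM under bortezomib, but did not pass (-0.81 ± 0.21, adjusted p = 0.068). The 3 adjusted p values lay close to the threshold. All 3 calls were lost without DMSO replicate 2 or 4 or bortezomib replicate 2, 3, 4 or 6, at adjusted p values up to 0.0854 (Col16a1 and Tinagl1) and 0.103 (Tnc), while the log2 fold changes without 1 mouse stayed between -2.16 and -1.73, -2.15 and -1.71, and -3.04 and -2.15. Without the filter on low values 0 were called, and with a filter on the mean over all mice Tnc was not. With voom the adjusted p values were 0.0507 for Col16a1, 0.0646 for Tinagl1 and 0.123 for Tnc. The summed mesangial markers of this line lay between 602 and 980 TPM under DMSO and between 402 and 607 TPM under bortezomib. Most of the sum was Des, which was lower (medians 478 and 320 TPM), and Pdgfrb (196 and 170 TPM). Medians under DMSO and bortezomib were 15.3 and 4.1 TPM in Acta2, 3.59 and 1.93 TPM in Cspg4 and 1.05 and 0.284 TPM in Myh11. They were 7.1 and 2.11 TPM in Ren1 and 1.74 and 1.33 TPM in Agtr1a. Itga8, Gata3, Rgs5 and Notch3 had medians under 1 TPM in both groups, without a common direction. Of the 5 mesangial and smooth muscle markers tested, Des alone was called. The part of mesangial cells in these results was not tested.

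In Lmx1bC118F/lox mice the same 3 genes had log2 fold changes of -0.45 ± 0.43 (Col16a1), -0.80 ± 0.51 (Tinagl1) and -1.42 ± 0.55 (Tnc), with adjusted p values of 0.813 to 0.836. The differences between the responses of both lines were -1.53 ± 0.59, -1.17 ± 0.67 and -1.29 ± 0.88, with adjusted p values of 0.65 to 0.679, so a different response was not shown. The corresponding differences between Lmx1bH77L/lox and control responses were -1.35 ± 0.60, -1.78 ± 0.63 and -2.07 ± 0.73, with adjusted p values of 0.229, 0.138 and 0.136, and without DMSO-treated control replicate 1 they were -1.84 ± 0.43, -2.05 ± 0.60 and -2.42 ± 0.69 (0.102, 0.137 and 0.135). Mgp had the largest estimate in Lmx1bC118F/lox mice, -3.04 ± 0.78, from 6.69 to 175 TPM under DMSO to 0.884 to 9.77 TPM under bortezomib, and did not pass (adjusted p = 0.694). Across all 3 tests of a difference in response, 0 members and 0% of all genes were called, and voom called 0 members as well. At an unadjusted p under 0.05 there were 2, 6 and 0 members, beside 7.6%, 18.2% and 5% of all genes tested.

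**Figure D5:**
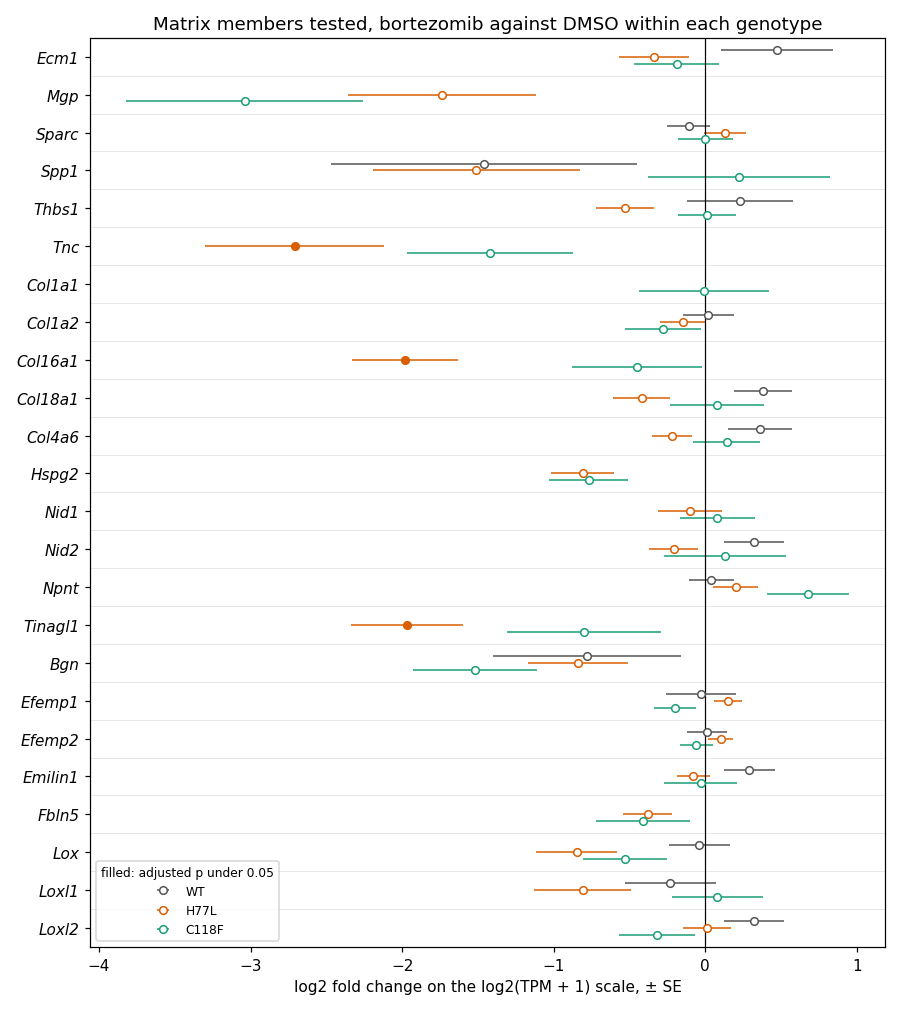
Log2 fold change with its SE (horizontal axis, log2(TPM + 1) scale) of each tested member (vertical axis) in bortezomib-treated against DMSO-treated podocytes of the same genotype, filled where the adjusted p was under 0.05. Filled points are Col16a1, Tinagl1 and Tnc in Lmx1bH77L/lox podocytes, all left of 0, and the Lmx1bC118F/lox points of these genes lie between them and 0.

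Both knock-in lines were also compared with each other. Under DMSO 0 of 23 tested members differed, and 0% of all genes were called. At an unadjusted p under 0.05 there was 1 member, Ecm1 with 0.66 ± 0.29, beside 3.85% of all genes tested. In 0 members did both groups not overlap (0.0648% of genes above and 0.0833% below). Under bortezomib 0 of 22 differed, where 0.713% of genes were higher and 0.259% lower in Lmx1bC118F/lox mice. At an unadjusted p under 0.05 there were 7 members, beside 14.4% of all genes tested. Limma voom called 0 members in both comparisons. Loxl1 and Tinagl1 were higher in every Lmx1bC118F/lox than in every Lmx1bH77L/lox mouse under bortezomib (1.22% of genes), with log2 differences of 0.83 ± 0.20 (adjusted p = 0.0595, limma) and 1.25 ± 0.33 (adjusted p = 0.0867). Ecm1 differed by 0.81 ± 0.20 (adjusted p = 0.0782) and Col16a1 by 1.47 ± 0.38 (adjusted p = 0.0811). Without bortezomib-treated Lmx1bC118F/lox replicate 1, 4 members were called, Col16a1, Ecm1 and Tinagl1 higher and Efemp1 lower, and without replicate 5 Spp1 was called alone.

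Markers of other cell types moved with the genotype beside these genes. The sum of 11 mesangial and smooth muscle markers lay between 40.2 and 187 TPM in DMSO-treated controls, between 602 and 980 TPM in Lmx1bH77L/lox and between 634 and 3260 TPM in Lmx1bC118F/lox mice, with Pdgfrb, Des and Cspg4 higher in both lines. Most of the rise was in Des (medians 29.9, 478 and 556 TPM) and Pdgfrb (13.3, 196 and 125 TPM), whereas Itga8, Gata3, Rgs5 and Notch3 had medians under 1 TPM in each of these groups. Medians were also higher in both lines in Acta2 (3.79, 15.3 and 41.6 TPM), Cspg4 (1.53, 3.59 and 4.85 TPM) and Myh11 (0.099, 1.05 and 0.472 TPM). Those of Agtr1a were 2.39, 1.74 and 1.49 TPM, and those of Ren1 were 6.21, 7.1 and 2.67 TPM. The sum of 8 parietal cell markers lay between 89.4 and 107, 166 and 350, and 115 and 236 TPM, with Cldn1, Pax8, Akap12 and Cd44 higher and Krt7 lower in both lines. Of 9 fibroblast markers, Lsp1 was higher and Gas1 lower in both lines, and Pdgfra and Clec3b were at 0 in all 6 DMSO-treated Lmx1bC118F/lox mice. Of 10 endothelial markers, only Ehd3 met the expression filter in the 4 comparisons with control, and it was not called by limma. The other endothelial markers were not tested. The endothelial sums were 16.6 to 76.8, 13.5 to 35.7 and 17.5 to 183 TPM under DMSO. The 10 tubule markers had median sums of 132, 18.9 and 26.9 TPM under DMSO, with ranges of 35.9 to 1800, 13.4 to 800 and 6.52 to 247 TPM. The highest control sum was in replicate 2, where Spp1 was at 823 TPM, but the highest control Spp1, 864 TPM, was in replicate 1. In Lmx1bH77L/lox mice the highest sum was in replicate 5 and the highest Spp1 in replicate 6. Cubn was higher in Lmx1bH77L/lox and Kap lower in Lmx1bC118F/lox mice. The 9 leukocyte markers had median sums of 24.7, 6.96 and 20.4 TPM, with ranges of 3.91 to 454, 3.17 to 74.9 and 5.27 to 117 TPM. Lyz2 was lower in Lmx1bC118F/lox mice. The part of these cells in the members' differences was not tested.

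Other matrix genes were also tested in the same comparisons. Of all genes tested under DMSO, 22.4% were higher and 22.4% lower in Lmx1bH77L/lox and 13.7% higher and 16.6% lower in Lmx1bC118F/lox mice. The counts below were not split by the group through which a gene passed the filter. Among all genes that passed through the knock-in group alone, 60.1% and 58.9% were higher. Of 10 GBM chains, 6 were higher in Lmx1bH77L/lox and 4 in Lmx1bC118F/lox podocytes under DMSO (9 tested) and 0 lower. Col4a2 was among them, an α2 chain of the embryonic type IV collagen network, at 0.581 to 5.99 TPM in controls, 26.7 to 69.6 TPM in Lmx1bH77L/lox and 24.1 to 75.6 TPM in Lmx1bC118F/lox mice, without overlap. Of 105 further matrix genes, 25 were higher and 4 lower in Lmx1bH77L/lox and 16 higher and 2 lower in Lmx1bC118F/lox mice (37 tested in each). Of these, 25 encode enzymes and chaperones that process or crosslink collagen, of which 14 were higher and 2 lower in Lmx1bH77L/lox and 10 higher and 1 lower in Lmx1bC118F/lox mice (19 tested in each). Tgm2, which encodes the crosslinking enzyme transglutaminase 2, rose from 12.7 to 25.6 TPM in controls to 191 to 229 TPM in Lmx1bH77L/lox and 145 to 229 TPM in Lmx1bC118F/lox mice, by 3.40 ± 0.12 (adjusted p = 1.7e-10, limma) and 3.27 ± 0.15 (adjusted p = 8.0e-09).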

How the data were processed

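Reads were single-end from poly(A)-selected RNA of sorted podocytes. Per the submitters' processing notes, the authors trimmed reads with Trim Galore 0.6.7, aligned them to GRCm39 with STAR, assessed duplicates with Picard and counted reads per gene with featureCounts 1.6.3. The authors deposited TPM, 1 column per mouse, each summing to 1000000 and not scaled between mice. TPM can shift when a few abundant genes change. Value columns left unused numbered 0, and depth was estimated from the steps between low TPM values, which gave whole reads (tolerance 0.1) for 99.9% of 23943 genes.

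Groups came from the labels, and each mouse was 1 replicate. No pair of libraries held the same values. limma 3.58.1 (R 4.3.3) with an intensity trend was fitted to log2(TPM + 1) for each of 9 two-group comparisons and 3 differences in bortezomib response, for genes above 1 TPM in every mouse of at least 1 group. P-values were adjusted over all genes tested. Members and lists were chosen with earlier results of these data known. Members described in full were those past the stricter cutoffs against control, called in both lines under DMSO, or called for bortezomib. From each other matrix list, at most 2 called rises and 2 called falls with the largest mean over both lines were taken, and 1 gene this rule named is not reported here. On data simulated with normal noise (9990 genes), 93 of 100 genes changed by 1 (log2) and 99 of 100 changed by 2.5 were recovered for Lmx1bH77L/lox against control under DMSO. For the difference in bortezomib response between both lines (9954 genes) it was 81 and 99 of 100. False calls numbered 7 and 10. Only genes above 1 TPM in every mouse compared were simulated, and only those of higher mean level were changed. Low members such as Col16a1, Hspg2, Tinagl1 and Tnc were therefore not covered.

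Alternatives were a pseudocount of 0.1, no filter, a filter on the mean over all mice, 1 fit of all 35 mice, the mouse number as covariate, scaling between mice, leaving out each mouse, and limma voom on recovered reads (chosen after seeing the data). Gene positions came from GENCODE vM39 (GRCm39), which held 32776 of 33292 identifiers. Python 3.11.15 with pandas 2.3.3, numpy 2.4.6 and matplotlib 3.10.9 was used.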

Additional observations from a re-analysis of the deposited data

Results flagged for a closer look

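Within groups of 5 or 6 mice, 60 groups of values (10 members in 6 groups) were checked for a single mouse far from the others by Dixon's ratio, and 5 were found, where chance flags about 1 in 20 groups. In the DMSO-treated controls, replicate 1 was far above the others in Col16a1 (7.43 TPM) and in Tnc (4.77 TPM), the same mouse that had the highest level of all 35 mice in 25 members. Efemp2 was lowest in replicate 2 of the DMSO-treated controls (33 TPM) and in replicate 2 of the bortezomib-treated Lmx1bC118F/lox mice (47.7 TPM), the latter being the library with the fewest reads. Tinagl1 was lowest in replicate 3 of the bortezomib-treated Lmx1bH77L/lox mice (0.223 TPM).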

How the results depend on the processing

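No paired analysis was possible because each mouse has its own number and the groups share none. The calls named above came to 51 fold changes, and in 357 alternative fits 319 kept direction and call, 38 lost the call and 0 changed sign. With mouse number as covariate, 9 members (Lmx1bH77L/lox) and 7 (Lmx1bC118F/lox) were higher under DMSO in place of 14 and 11. Bortezomib calls in Lmx1bH77L/lox mice numbered 0 without a filter and 0 with voom. Under the stricter cutoffs, each line under DMSO had 1 member without a filter and 1 with mouse number as covariate, and with all 35 mice in 1 fit Lmx1bH77L/lox had 4 and Lmx1bC118F/lox 5. Lmx1bH77L/lox under bortezomib had 2 with a pseudocount of 0.1 and 2 with voom. The cause was not tested. Leaving out 1 mouse gave 12 to 15, 9 to 13, 9 to 11 and 12 to 14 members called against control (Lmx1bH77L/lox and Lmx1bC118F/lox under DMSO, then under bortezomib), 0 to 3 for bortezomib in Lmx1bH77L/lox mice, and 0 to 4 between both lines under bortezomib. Members past the stricter cutoffs then numbered 1 to 5, 1 to 4, 1 to 2 and 2 to 3. Depth limits statements on members near 0, where 1 read decides a value.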

Other observations

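Matrix genes outside the list also moved under bortezomib in Lmx1bH77L/lox mice. Col5a3, a minor fibrillar collagen chain, was lower than under DMSO, with a log2 fold change of -2.14 ± 0.45 (adjusted p = 0.0387), and Col4a2 with -1.25 ± 0.24 (adjusted p = 0.0352). Ccn1, a matricellular protein of the CCN family that was chosen after its values were seen, was higher without overlap, by 0.72 ± 0.11 (adjusted p = 0.0184). Hapln3, which encodes a hyaluronan link protein, was lower in both lines under DMSO, with -1.03 ± 0.34 (adjusted p = 0.0225) and -1.34 ± 0.35 (adjusted p = 0.00974), and under bortezomib in Lmx1bC118F/lox mice (-1.16 ± 0.30, adjusted p = 0.0102), while its value in bortezomib-treated Lmx1bH77L/lox mice was 0.13 ± 0.21.

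Igfbp7, which encodes an insulin-like growth factor binding protein of the matrix, had the highest level of the named genes, 7450 to 9410 TPM in DMSO-treated controls. It rose without overlap to 20100 to 22300 TPM in Lmx1bH77L/lox and 20200 to 25400 TPM in Lmx1bC118F/lox mice, by 1.30 ± 0.15 (adjusted p = 1.1e-05, limma) and 1.40 ± 0.17 (adjusted p = 2.1e-05). Ccn2, the matricellular connective tissue growth factor, rose by 1.71 ± 0.25 (adjusted p = 1.0e-04) and 1.73 ± 0.24 (adjusted p = 7.3e-05). Pcolce, an enhancer of procollagen C-proteinase, fell by 0.34 ± 0.13 (adjusted p = 0.0426) and 0.40 ± 0.12 (adjusted p = 0.0196).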
